A study of Homo sapiens with 4 samples.

Results

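The 10 genes FAT1, TRIO, DST, MACF1, PLEC, SPTAN1, FLNA, MYH9, UTRN and AHNAK code for very large proteins of the cytoskeleton and of cell adhesion. They were chosen by the ratio of the libraries irradiated with 10 mGy and with 100 mGy (the low doses) to the control, since FAT1, DST and TRIO had some of the lowest ratios in earlier results of these data, and other genes of very long transcripts were set beside them. Matched by gene symbol, they are 10 of the 36601 genes listed for each library. A mean level of at least 10 CPM (UMIs per 1000000 UMIs of a library) over the 4 libraries was reached by 8507 genes, the 10 members among them. The choice used the values at 10 mGy and at 100 mGy against the control, so the low-dose values of the members are a description of the chosen genes and support nothing by themselves.

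BEAS-2B is a human airway epithelial line that was made to grow without limit in culture. Cells without radiation (control) and cells exposed to 10 mGy, 100 mGy or 1 Gy of gamma rays from a Cs-137 source were compared, and the study's methods give a dose rate of 100 mGy per min and sequencing 30 min after irradiation. One droplet library (Chromium 3′ chemistry, version 3) stands for each dose, so the 4 groups of this single line are 1 library each. There is no replicate error, no test between doses was possible, and dose and library cannot be told apart. The intervals given below are exact 95.0% intervals for the counting of UMIs (unique molecular identifiers, 1 per captured mRNA molecule) and cover counting error only.

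The libraries held 211752280 to 285806026 UMIs in 11111 to 21514 cell barcodes, with a median of 12417 to 19771 UMIs per barcode. Between 76 and 134 barcodes were shared by any pair of libraries, at most 0.864% of a library. The libraries of 10 mGy and 100 mGy stood apart from the other 2 in their makeup. Ribosomal protein genes took 19.97% and 21.8% of their UMIs, against 13.9% in the control and 14.0% at 1 Gy. Their median gene was also lower against the control, with a median log2 ratio of −0.30 at 10 mGy and −0.38 at 100 mGy, against 0.02 at 1 Gy. Barcodes of low UMI count, whose count times 3 was still under the library median, made up 19.6% of the control, 41.4% after 10 mGy, 27.4% after 100 mGy and 25.4% after 1 Gy. Of 10 epithelial markers, KRT7, KRT8, KRT17, KRT18 and LAMB3 reached 10 CPM, whereas KRT5, KRT14 and CDH1 were under 1 CPM. Of 6 mesenchymal markers 6 reached 10 CPM, and VIM had 2344 to 2702 CPM. The summed level of these 6 was 7001 CPM in the control, 4498 after 10 mGy, 4314 after 100 mGy and 6510 after 1 Gy, and moved with the members. Of 8 fibroblast markers 2 reached 10 CPM, with a summed level of 328 to 430 CPM. Of 7 leukocyte, 5 endothelial and 7 muscle markers, 0 reached 10 CPM in each list, and the summed level of each list was at most 1.72 CPM. The part of the ribosomal share and of the mesenchymal markers in the values of the members was not tested.

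Epithelial cells hold their shape through actin filaments, microtubules and intermediate filaments, and very large linker proteins tie these systems to each other and to the membrane. Plakins such as dystonin and plectin join keratin filaments to hemidesmosomes, spectrins line the inner face of the membrane, filamins hold actin in networks, and non-muscle myosin II pulls on it. Such proteins need very long coding sequences, so their genes are among the longest transcripts that a cell makes.

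By the GENCODE 29 annotation (GRCh38), to which the 10 members were matched by gene identifier, their exonic length ran from 9.01 kb in MYH9 to 42.3 kb in DST. MACF1 had 40.7 kb, AHNAK 19.5 kb, TRIO 17.5 kb, PLEC 16.99 kb, FAT1 16.2 kb, SPTAN1 16.2 kb, UTRN 14.6 kb and FLNA 10.6 kb. Exonic length joins the exons of all transcripts of a gene, so single transcripts are shorter. The longest transcript was 24.8 kb in MACF1, 22.4 kb in DST, 8.52 kb in FLNA, 7.89 kb in SPTAN1 and 7.55 kb in MYH9. The gene span, introns included, ran from 26.1 kb in FLNA to 567 kb in UTRN, with 497 kb in DST and 139 kb in FAT1. Exon structure also differed, from 5 exons in the longest coding transcript of AHNAK to 101 in that of MACF1. The build of the deposited files is named as GRCh37 in the submitters' processing notes, so these positions and lengths were not read from the files. The chemistry is made to count near the 3′ end of transcripts, and the isoforms of a gene cannot be told apart in these counts.

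For the 3 genes by which the group was chosen, the 250 bases before the first RefSeq transcript start (GRCh38.p14) are printed to show the GC boxes that each promoter holds. They are written 5′ to 3′ in the direction of transcription, and capitals mark GC boxes, the letters GGGCGG on either strand.
FAT1 promoter, chr4:186726697-186726946, minus strand: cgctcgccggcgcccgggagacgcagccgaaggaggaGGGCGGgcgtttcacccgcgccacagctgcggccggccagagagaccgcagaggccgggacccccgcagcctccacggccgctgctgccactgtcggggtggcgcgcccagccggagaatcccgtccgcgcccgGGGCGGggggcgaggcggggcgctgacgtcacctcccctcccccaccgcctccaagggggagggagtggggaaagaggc
DST promoter, chr6:56954831-56955080, minus strand: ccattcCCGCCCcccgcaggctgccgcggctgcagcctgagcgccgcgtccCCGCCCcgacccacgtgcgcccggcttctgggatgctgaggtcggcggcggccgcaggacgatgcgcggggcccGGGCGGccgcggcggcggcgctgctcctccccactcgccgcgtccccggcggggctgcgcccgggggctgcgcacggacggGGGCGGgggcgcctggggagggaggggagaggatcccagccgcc
TRIO promoter, chr5:14143092-14143341, plus strand: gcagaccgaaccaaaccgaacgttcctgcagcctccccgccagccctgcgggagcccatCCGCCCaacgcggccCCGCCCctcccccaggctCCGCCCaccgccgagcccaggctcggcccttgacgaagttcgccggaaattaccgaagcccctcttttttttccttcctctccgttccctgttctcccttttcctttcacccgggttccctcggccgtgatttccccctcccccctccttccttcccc
The FAT1 promoter held 2 GC boxes in 78% G and C, the DST promoter 4 in 82.8% and the TRIO promoter 3 in 66.4%. The table of RefSeq promoters held 15 promoters of 9 of the members, and the promoter of PLEC is not analysed here. A GC box, known as a binding site of SP1 family factors, was present in 10 of these 15 promoters and in 42.6% of 35116 promoters of the same length. The letters GGAATG, the core of the TEAD motif of Hippo signalling, were present on either strand in 3 of 15 (1 promoter each of DST, MACF1 and MYH9), against 11.9% of all promoters. A TATA box (TATAAA) was present in 3 of 15, against 10.7%. An E-box (CACGTG) was present in 1 of 15, that of DST, where it overlaps no GC box, against 6.34%. A CArG box, the site of serum response factor, was present in 1 of 15, that of FLNA, against 1.16%. These matches describe letters in a window and do not show a bound factor.

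In each library the 10 members together took a small share of the UMIs. It was 0.651% in the control (0.649% to 0.652%), 0.313% after 10 mGy (0.313% to 0.314%), 0.306% after 100 mGy (0.305% to 0.306%) and 0.637% after 1 Gy (0.636% to 0.639%). The low-dose libraries lay apart from the other 2, and the 1 Gy library lay just under the control. Each member was counted with 16214 to 386662 UMIs in a library, so counting error is small, while the spread between cultures is unknown. The same order of libraries, with both low doses below both the control and 1 Gy, was found in 10 of 10 members and in 67.6% of the 8507 genes.

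**Figure D1:**
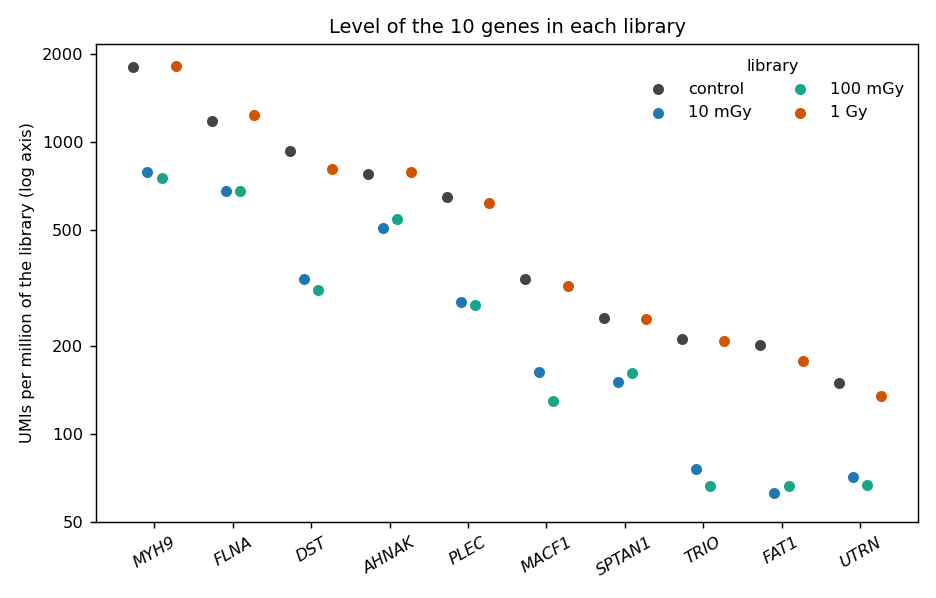
Level of each member in the 4 libraries, as CPM on a log axis, with genes ordered by their level in the control. Points are single libraries, counting intervals are narrower than the points, and for each gene the 10 mGy and 100 mGy points lie below those of the control and of 1 Gy.

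FAT1 is a giant cadherin of the cell surface that acts on Hippo signalling and on actin at cell borders. Its level was 202 CPM in the control, 63.1 CPM after 10 mGy, 66.3 CPM after 100 mGy and 179 CPM after 1 Gy. Both low-dose libraries lay at a similar low level, and 1 Gy lay near the control. Relative to the control FAT1 was at 0.313 (0.308 to 0.319) after 10 mGy, 0.329 (0.323 to 0.335) after 100 mGy and 0.887 (0.875 to 0.899) after 1 Gy. At 10 mGy only 11 of the 8507 genes had a lower ratio than FAT1.

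TRIO is a guanine nucleotide exchange factor that switches on RAC1 and so acts on the actin cytoskeleton. It was measured at 211 CPM in the control, 76.3 CPM after 10 mGy, 66.5 CPM after 100 mGy and 208 CPM after 1 Gy. Relative to the control TRIO was at 0.361 (0.355 to 0.367) at 10 mGy and 0.314 (0.309 to 0.320) at 100 mGy. At 1 Gy the ratio was 0.986 (0.973 to 0.999), the smallest departure from the control among the 3 genes by which the group was chosen.

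The plakins DST, MACF1 and PLEC join filament systems to each other and to adhesion sites. DST (dystonin) was at 934 CPM in the control, 340 CPM after 10 mGy, 312 CPM after 100 mGy and 811 CPM after 1 Gy. Its ratio was 0.364 (0.361 to 0.367) after 10 mGy, 0.334 (0.331 to 0.337) after 100 mGy and 0.868 (0.862 to 0.873) after 1 Gy, the lowest 1 Gy ratio of the 10 members. MACF1, a spectraplakin that ties microtubules to actin, was at 339, 163, 130 and 321 CPM in the order control, 10 mGy, 100 mGy and 1 Gy. MACF1 lay lower at 100 mGy (ratio 0.384, 0.379 to 0.389) than at 10 mGy (0.482, 0.476 to 0.487). PLEC (plectin), which anchors intermediate filaments, was at 649, 283, 276 and 620 CPM in the same order. Its ratio was 0.436 (0.432 to 0.440) after 10 mGy, 0.425 (0.421 to 0.429) after 100 mGy and 0.955 (0.948 to 0.962) after 1 Gy.

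MYH9, the heavy chain of non-muscle myosin IIA, had the highest level of the group, with 1813 CPM in the control, 793 CPM after 10 mGy, 754 CPM after 100 mGy and 1826 CPM after 1 Gy. Relative to the control MYH9 was at 0.437 (0.435 to 0.439) after 10 mGy, 0.416 (0.414 to 0.418) after 100 mGy and 1.01 (1.00 to 1.01) after 1 Gy. FLNA (filamin A), which crosslinks actin and binds integrins, was at 1178, 683, 678 and 1239 CPM in the order control, 10 mGy, 100 mGy and 1 Gy. Its low-dose ratios, 0.580 (0.577 to 0.583) and 0.575 (0.572 to 0.579), were nearer to the control than those of MYH9, and its 1 Gy ratio of 1.05 (1.05 to 1.06) was the highest of the members.

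SPTAN1, the alpha chain of spectrin outside red blood cells, and AHNAK, a membrane scaffold, had the highest low-dose ratios of the group. SPTAN1 was at 250, 151, 162 and 248 CPM in the order control, 10 mGy, 100 mGy and 1 Gy, and AHNAK was at 778, 506, 544 and 788 CPM. Both lay below the control at the low doses, and both were a little higher at 100 mGy than at 10 mGy. SPTAN1 had a ratio of 0.605 (0.597 to 0.612) at 10 mGy, and of 0.646 (0.637 to 0.654) at 100 mGy. AHNAK had a ratio of 0.651 (0.646 to 0.656) at 10 mGy, and of 0.6996 (0.695 to 0.705) at 100 mGy. UTRN (utrophin), the relative of dystrophin that ties actin to dystroglycan, was at 149, 71.5, 67.0 and 135 CPM. Its ratio was 0.478 (0.470 to 0.487) after 10 mGy, 0.448 (0.440 to 0.457) after 100 mGy and 0.905 (0.891 to 0.920) after 1 Gy.

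Compared between genes, levels were set per kb of exonic length, a scale that suits full-length reads better than these 3′ counts. In the control MYH9 had 201 CPM per kb and FLNA 111, whereas MACF1 had 8.33, UTRN 10.2, TRIO 12.1 and FAT1 12.5. AHNAK had 39.97, PLEC 38.2, DST 22.1 and SPTAN1 15.4 CPM per kb. Per kb of the longest transcript, PLEC had 42.6, DST 41.7, AHNAK 41.4 and SPTAN1 31.7. MYH9 (240) and FLNA (138) stayed highest, with TRIO at 19.0, MACF1 at 13.7, FAT1 at 13.6 and UTRN at 12.1. The order of the genes between the extremes thus depends on the length used.

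Of the 10 members, 10 were more than 1.2-fold lower than the control at 10 mGy, where 53.0% of all genes were, and 10 were so at 100 mGy, where 58.9% of all genes were. More than 1.2-fold higher were 0 members in each of the 3 irradiated libraries, against 15.4% of all genes for 10 mGy, 14.0% for 100 mGy and 1.28% for 1 Gy. The median log2 ratio of the members was −1.13 at 10 mGy and −1.25 at 100 mGy, which is 0.83 and 0.87 below the median of all genes. The members ranged from −1.67 to −0.62 at 10 mGy and from −1.67 to −0.52 at 100 mGy. These ratios chose the group, so nothing is read from the counts.

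The order of the members was similar but not identical at the low doses. At 10 mGy it ran from FAT1 over TRIO, DST, PLEC, MYH9, UTRN, MACF1, FLNA and SPTAN1 to AHNAK, and the counting intervals overlapped between the neighbours TRIO and DST, PLEC and MYH9, and UTRN and MACF1. At 100 mGy it ran from TRIO over FAT1, DST, MACF1, MYH9, PLEC, UTRN, FLNA and SPTAN1 to AHNAK, and the intervals of FAT1 and DST overlapped. The largest move in this order was that of MACF1. Both comparisons share the control library, so the likeness of the orders is no separate result.

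**Figure D2:**
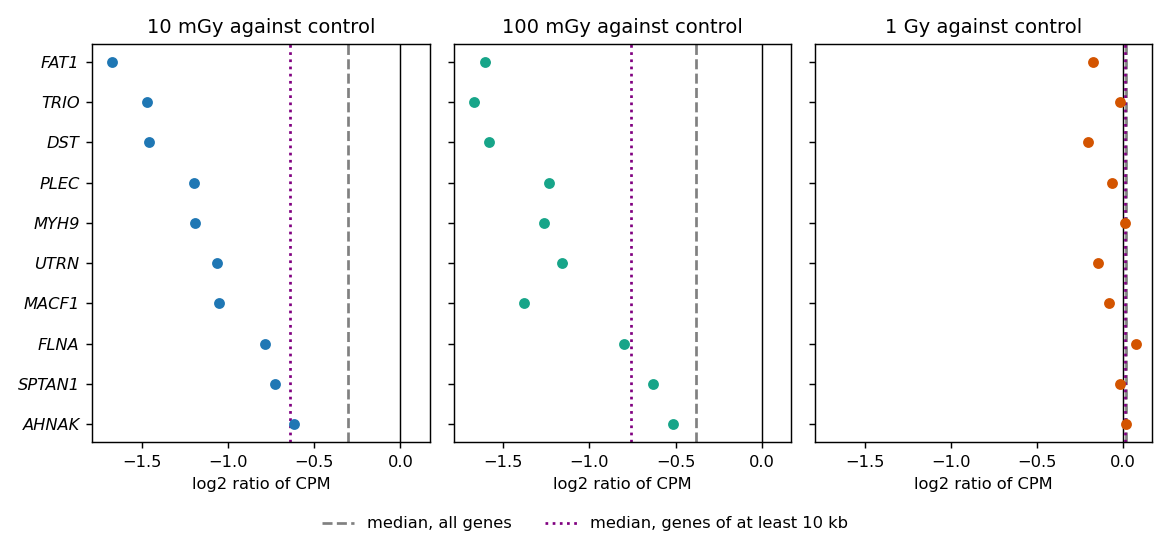
Log2 ratio of CPM of each member to the control at 10 mGy, 100 mGy and 1 Gy, with dashed lines at the median of all 8507 genes and dotted lines at the median of genes of at least 10 kb exonic length. At 10 mGy FAT1 lies lowest and AHNAK highest, and at 1 Gy the members lie between −0.20 and 0.07, with counting intervals no wider than the points.

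The libraries of 10 mGy and 100 mGy can be set against each other without the control. The median log2 ratio of the members at 100 mGy against 10 mGy was −0.05, close to −0.07 over all genes. MACF1 was the 1 member more than 1.2-fold lower at 100 mGy (ratio 0.796, 0.785 to 0.808), where 12.7% of all genes were, and 0 members were more than 1.2-fold higher, where 1.35% were. FAT1 (1.05), SPTAN1 (1.07) and AHNAK (1.07) were a little higher at 100 mGy, and TRIO was at 0.872 (0.854 to 0.890). No member moved as far between the low-dose libraries as it did between either of them and the control. Both low-dose libraries chose the group by their distance to the control, so nothing is read from this.

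At 1 Gy the members lay close to the control. None of the 10 was more than 1.2-fold lower, where 0.846% of all genes were, and the median log2 ratio was −0.04, against 0.02 over all genes. SPTAN1 did not differ from the control beyond counting error (0.989, 0.977 to 1.00). DST, FAT1 and UTRN had the lowest ratios, and 227, 404 and 675 of the 8507 genes had a lower one. Without replicates, differences of this size cannot be set against the spread between cultures. Against 1 Gy in place of the control, the low-dose libraries gave the same counts. At 10 mGy 10 members were more than 1.2-fold lower than at 1 Gy, where 55.2% of genes were, and the median log2 ratio was −1.05. At 100 mGy 10 were, where 60.6% of genes were, and the median was −1.22. The low-dose libraries that chose the group enter here too, and 1 Gy lay close to the control, so these counts support nothing.

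The members have long transcripts and were set beside genes of like length. Genes of at least 10 kb exonic length numbered 1167, 9 members among them, with a median log2 ratio of −0.64 after 10 mGy, −0.76 after 100 mGy and 0.01 after 1 Gy. Of these long genes 85.2% were more than 1.2-fold lower at 10 mGy and 88.3% at 100 mGy. Genes under 2 kb, 726 in number, had a median of 0.36 at each low dose and −0.03 at 1 Gy. Below the median of the long genes lay 9 members at 10 mGy and 8 at 100 mGy, with AHNAK above it at both and SPTAN1 at 100 mGy. Of the 1167 long genes, 2 were lower than FAT1 at 10 mGy and 9 at 100 mGy. TRIO had 8 lower at each low dose and DST had 11. These ranks follow from the values that chose the genes and support nothing.

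Across 8403 genes with an annotated length, ribosomal protein and mitochondrially encoded genes left out, Spearman's rank correlation between exonic length and the log2 ratio was −0.56 after 10 mGy, −0.57 after 100 mGy and 0.03 after 1 Gy. Over the 10 members alone it was −0.04, −0.22 and −0.39. With gene span it was −0.32, −0.45 and −0.72 over the members, and −0.45, −0.45 and −0.11 over all genes. With the longest transcript it was −0.08, −0.19 and −0.53 over the members, and −0.62, −0.63 and 0.02 over all genes. At 1 Gy the members of widest span, UTRN and DST, were among the lowest and FLNA, of the narrowest span, was the highest. FAT1, of narrower span (139 kb), was also among the lowest, while TRIO, of wide span (388 kb), was at 0.986. These values are descriptions across genes, which are not replicates and share their libraries. The part of length in the low-dose values of the members was not tested.

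**Figure D3:**
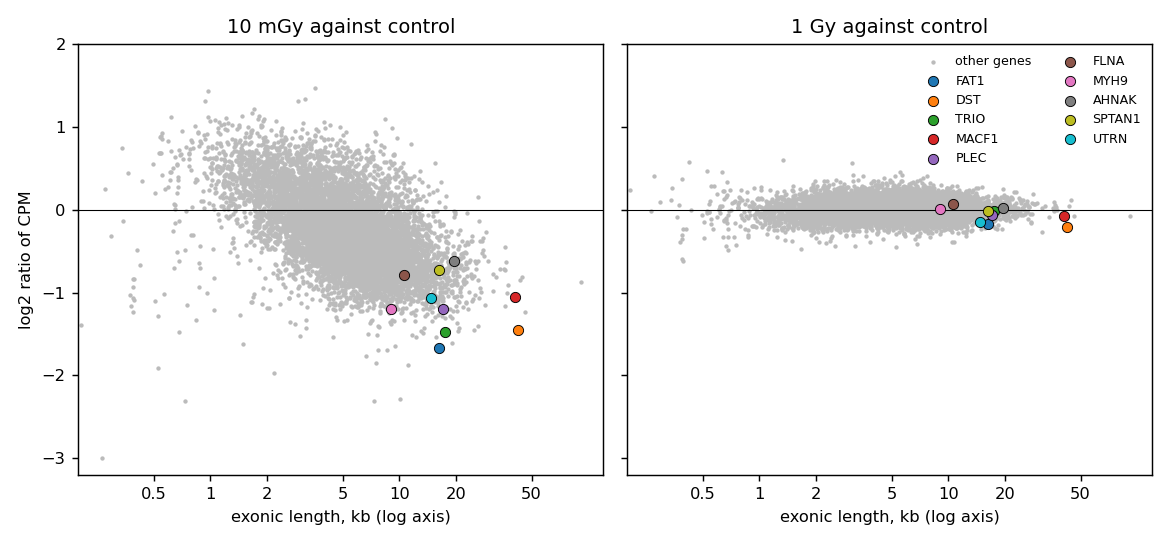
Exonic length in kb (log axis) against the log2 ratio of CPM to the control for single genes at 10 mGy (left) and 1 Gy (right), with the members as coloured points and other genes in grey. At 10 mGy longer genes lie lower and FAT1, TRIO and DST lie at the lower edge of genes of like length, while at 1 Gy the cloud is flat around 0.

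The genes around the members were described from lists put together with earlier results of these data known, with members left out of the counts and genes under 10 CPM set aside. Over all genes 53.0% were lower and 15.4% higher at 10 mGy, and 58.9% and 14.0% at 100 mGy. Under median ratio scaling, which sets the median gene at no change, the shares were 27.3% and 30.6% at 10 mGy, and 29.01% and 31.8% at 100 mGy. Without scaling they were 84.6% and 1.62%, and 90.1% and 1.02%. The counts of each list stand against these shares, and the list names are working names. A list of 35 other long genes, 10.9 to 36.9 kb in exonic length, holds enzymes, chromatin proteins and transport proteins, and also DYNC1H1, ASPM, CENPF and AKAP9, which act at microtubules or centrosomes. Of these 35 genes 35 were more than 1.2-fold lower at 10 mGy and 35 at 100 mGy, where 85.2% and 88.3% of genes of at least 10 kb were, with a median log2 ratio of −0.83 and −0.95 and 0.01 at 1 Gy. The lowest at 10 mGy was KMT2D (0.362), a histone methyltransferase, and the highest was RNF213 (0.827), a ubiquitin ligase. A list of 21 further cytoskeletal genes, 6.80 to 46.1 kb in exonic length, gave 21 of 21 lower at both low doses, with medians of −0.88 and −1.17. With median ratio scaling 31 of the 35 and 20 of the 21 were lower at 10 mGy. PCNT (0.352), which builds centrosomes, was the lowest and CARMIL1 (0.731), a regulator of actin capping, the highest. At 1 Gy 1 gene was lower in each of these lists, GOLGB1 (0.831) and SYNE2 (0.833), and 0 were higher.

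Among plakins that are no members, DSP (desmoplakin), the plakin of desmosomes, was the 1 that passed 10 CPM. Its level was 187 CPM in the control, 93.7 CPM after 10 mGy, 86.4 CPM after 100 mGy and 181 CPM after 1 Gy, a ratio of 0.502 at 10 mGy. Of 7 spectrin genes and partners 6 were lower at 10 mGy and 7 at 100 mGy. SPTBN1, the beta chain that pairs with SPTAN1, was the lowest at 10 mGy with 0.410 (0.406 to 0.415), and ADD3 (adducin 3) was the highest with 0.912. The partners of spectrin thus lay on both sides of SPTAN1. SPTAN1 had 0.556 UMIs per UMI of SPTBN1 in the control, 0.819 after 10 mGy, 0.880 after 100 mGy and 0.567 after 1 Gy, a ratio within a library that no scaling between libraries touches. The pairs given this way here and below were picked after their values were seen.

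Non-muscle myosin II did not lie on 1 side. MYH10, the heavy chain of myosin IIB, was at 0.547 (0.535 to 0.558) at 10 mGy and 0.513 at 100 mGy, like MYH9 below the control. The light chains, which are short genes, lay above the control at 10 mGy, with 1.58 for MYL6, 1.56 for MYL12A, 1.66 for MYL12B, 1.40 for MYL6B and 1.14 for MYL9. Their level at 100 mGy was alike, from 1.04 for MYL9 to 1.77 for MYL12B. MYL12A and MYL12B are close copies, so the split of their UMIs is uncertain. Of the 6 genes beside MYH9, 4 were more than 1.2-fold higher and 1 was lower at each low dose. MYH9 had 0.918 UMIs per UMI of MYL6 in the control and 0.976 at 1 Gy, but 0.254 at 10 mGy and 0.224 at 100 mGy. In UMIs per barcode without scaling, 0 of the 4 stayed over 1.2-fold higher. At 10 mGy MYL6 was then at 1.10, MYL12A at 1.08 and MYL12B at 1.15, while MYL6B turned to 0.974 and MYL9 to 0.791.

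AHNAK showed a like split with its partners. S100A10 and ANXA2 form the membrane complex that AHNAK binds. At 10 mGy S100A10 was at 1.47 (1.46 to 1.47) and ANXA2 at 1.10, and at 100 mGy they were at 1.72 and 1.2004. S100A11 and ANXA1, a related pair, were at 1.65 and 1.08 at 10 mGy, while AHNAK2, the giant relative of AHNAK, was at 0.828 and DYSF (dysferlin), which mends membranes, at 1.01. AHNAK had 0.768 UMIs per UMI of S100A10 in the control and 0.860 at 1 Gy, against 0.341 at 10 mGy and 0.313 at 100 mGy. Beside AHNAK, 1 of the 6 genes was lower and 2 were higher at 10 mGy, and 2 were lower and 4 higher at 100 mGy, and without scaling 0 stayed higher. At 10 mGy S100A10 was then at 1.02 and S100A11 at 1.15, while ANXA2 turned to 0.760 and ANXA1 to 0.750. Under median ratio scaling 5 of the 6 were higher and 0 lower at 10 mGy.

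The dystrophin complex around UTRN lay nearer to the control than UTRN itself. SNTB2 (a syntrophin) was at 0.646 and DAG1 (dystroglycan, the membrane receptor of the complex) at 0.746 at 10 mGy. SGCE (0.844) and SGCB (0.884), both sarcoglycans, and DTNB (0.899), a dystrobrevin, were closer still. Of these 5 genes 2 were more than 1.2-fold lower at 10 mGy, where 53.0% of all genes were, and 5 at 100 mGy, where 58.9% were. Under median ratio scaling 1 was lower at 10 mGy and 0 at 100 mGy, and the list median at 10 mGy turned from −0.24 to 0.06. UTRN had 1.14 UMIs per UMI of DAG1 in the control, 0.733 after 10 mGy, 0.736 after 100 mGy and 0.993 after 1 Gy.

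**Figure D4:**
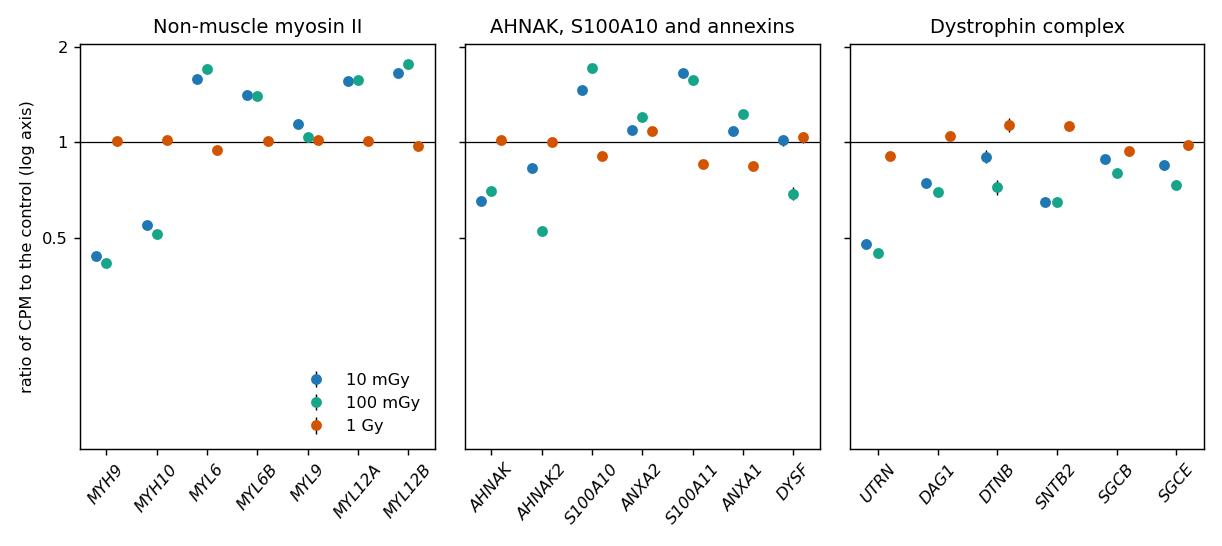
Ratio of CPM to the control (log axis) at 10 mGy, 100 mGy and 1 Gy for the partners of MYH9, AHNAK and UTRN, with each member first in its panel and vertical lines for counting intervals where wider than the point. At the low doses MYH9 and MYH10 lie under 1 and the myosin light chains over 1 in CPM (MYL6B and MYL9 are under 1 without scaling), and AHNAK lies under 1 while S100A10 and S100A11 lie over 1.

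The genes listed beside FAT1, the cadherins FAT3 and FAT4 and the gene FJX1, lay below the control as well, with 3 of 3 lower at both low doses. FAT3 was at 0.429 and FAT4 at 0.565 at 10 mGy, at levels of 15.2 and 15.5 CPM in the control, and FJX1, a relative of the fly gene four-jointed that acts on Fat cadherins, was at 0.644. FAT1 had 13.0 UMIs per UMI of FAT4 in the control, 7.22 after 10 mGy, 9.55 after 100 mGy and 11.2 after 1 Gy.

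Of 9 filamins and actin crosslinkers 8 were lower at each low dose, from FLNC (0.530) to CALD1 (caldesmon, 1.10) at 10 mGy. Under median ratio scaling 4 of 9 were lower and 1 higher at 10 mGy, and 2 were lower and 1 higher at 100 mGy, where 27.3% and 29.01% of all genes were lower. Of 22 focal adhesion and hemidesmosome genes 19 were lower at 10 mGy and 18 at 100 mGy, against 53.0% and 58.9% of all genes, with a median log2 ratio of −0.49 and −0.59. TNS1 (tensin 1) was the lowest at 10 mGy with 0.501 and ILK, the integrin-linked kinase, the highest with 1.19. With that scaling 9 of the 22 were lower and 2 higher at 10 mGy, and 10 were lower and 2 higher at 100 mGy. Of 17 genes of actin and its small binding proteins, most of them short but TPM1 (12.9 kb) and ARPC5 (10.6 kb) long, 3 were lower and 4 higher at 10 mGy, with a median of 0.05, between TPM4 (tropomyosin 4, 0.718) and CAPG (a capping protein, 1.65). Under median ratio scaling 0 of the 17 were lower and 10 higher at 10 mGy, and without scaling 13 were lower and 0 higher. FLNA had 0.215 UMIs per UMI of ACTB in the control, 0.136 after 10 mGy, 0.132 after 100 mGy and 0.212 after 1 Gy. At 1 Gy 0 genes of the filamin and focal adhesion lists were past 1.2-fold in either direction, and in the actin list PFN1 (profilin 1) alone was, at 0.786.

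Barcodes of low UMI count were more frequent in the irradiated libraries, so the members were also measured in them alone and with them left out. In the control, low-UMI barcodes held the members at about the same CPM as other barcodes, with a median ratio of 1.01 (0.987 over all genes). At 10 mGy the ratio was 0.723 (0.957 over all genes), at 100 mGy 0.895 (0.988) and at 1 Gy 0.798 (0.940). Over all genes 53.2% had a ratio below 1 in the control, 60.0% after 10 mGy, 52.8% after 100 mGy and 62.6% after 1 Gy, and of the 10 members 5, 10, 8 and 10 had. At 10 mGy 9 of 10 members were lower in low-UMI barcodes beyond counting error, from AHNAK (0.505, 0.489 to 0.521) on, with TRIO (0.976, 0.919 to 1.04) as the exception. At 1 Gy, where the members lay near the control over all barcodes, 10 of 10 were lower. At 100 mGy 6 were lower, and FAT1 (1.18) and TRIO (1.12) were higher. In the control 3 were lower (PLEC, FLNA and AHNAK) and DST was higher (1.08, 1.05 to 1.11). For these calls beyond counting error no share over all genes is given, so nothing is read from their counts. Low-UMI barcodes held 2.16% to 5.40% of the UMIs of a library, so leaving them out could move summed values only a little. Without them the median log2 ratio of the members was −1.11 at 10 mGy and −1.25 at 100 mGy, against −1.13 and −1.25 with them. With means over barcodes, where each barcode weighs alike, the median was −1.28 and −1.33. The part of low-UMI barcodes in the low-dose values was not tested.

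The share of barcodes with a UMI of a gene depends on depth, so barcodes were thinned to 5000 UMIs, which left 9060 in the control, 12561 after 10 mGy, 14271 after 100 mGy and 11530 after 1 Gy and set 2051, 8953, 5679 and 3980 shallower ones aside. FAT1 was then seen in 62.1% of barcodes in the control (61.1% to 63.1%), 26.7% after 10 mGy (25.9% to 27.4%), 27.1% after 100 mGy (26.3% to 27.8%) and 57.8% after 1 Gy (56.9% to 58.7%). Unthinned, it was seen in 83.4%, 44.1%, 46.1% and 72.7%. TRIO was seen in 64.0%, 30.9%, 27.4% and 62.8% after thinning, and UTRN in 51.5%, 29.8%, 27.7% and 48.3%. Genes of high level stayed visible in most barcodes, with DST at 97.9%, 78.0%, 74.5% and 97.1% and MYH9 at 99.7%, 95.2%, 94.0% and 99.8%. These shares follow the levels that chose the group. The line holds 1 cell type, so no cells that should lack these genes were at hand to measure free RNA.

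**Figure D5:**
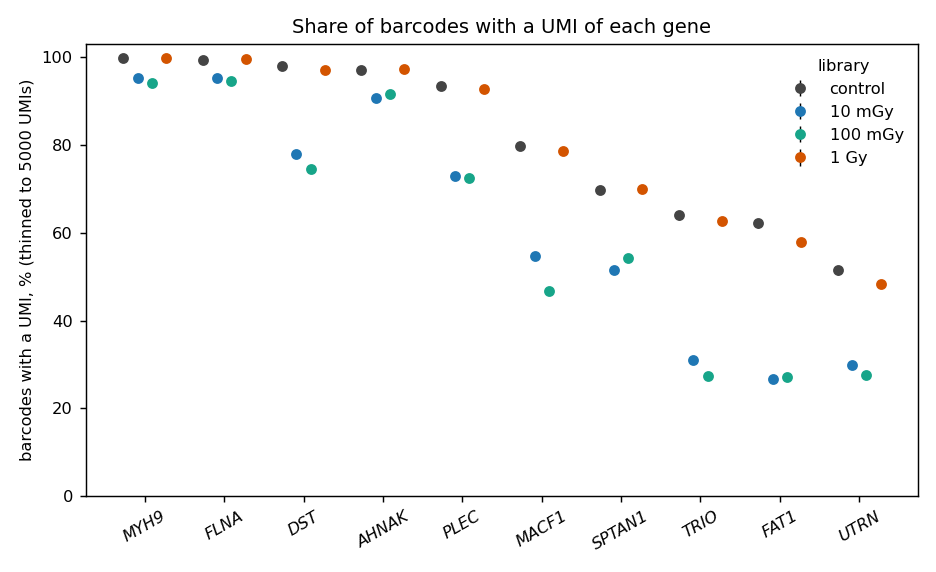
Percent of barcodes with at least 1 UMI of each member after thinning to 5000 UMIs per barcode, with exact binomial intervals narrower than the points. The low-dose libraries lie below the control and 1 Gy for each gene, by a wide margin for FAT1 and TRIO and a narrow one for MYH9 and FLNA.

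The study screened for genes whose expression differences had a dispersion that fell with dose. Here the dispersion of a gene over cells is the standard deviation over the mean in percent, the form the study defines for the dose to nuclei. After thinning, the dispersion of FAT1 was 104% in the control, 181% after 10 mGy, 180% after 100 mGy and 109% after 1 Gy. In all barcodes, with UMIs scaled to 10000, it was 94.4%, 212%, 234% and 118%, so the order of the low doses differed between these measures. After thinning, counting alone (a Poisson count of the same mean) gives 99.5%, 178%, 176% and 105%. After thinning, the dispersion of FAT1 thus lay close to counting noise in each library. Thinning lowers the mean and itself draws counts towards a Poisson count, so this closeness does not show how FAT1 varied between cells. MYH9 stood further from counting noise than the other members, with a variance over mean of 2.49 in the control, 1.83 after 10 mGy, 1.89 after 100 mGy and 2.57 after 1 Gy, where 1 is the Poisson value. For PLEC it was 1.47, 1.21, 1.17 and 1.52. FAT1 stayed at 1.04 to 1.09. Variance over mean can rise with the mean, and MYH9 had the highest level. In the control its mean was 8.83 thinned UMIs per barcode, against 1.01 for FAT1. The part of level in these values was not tested.

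Across barcodes of a library, with low-UMI barcodes left out (8937 in the control, 12603 after 10 mGy, 14477 after 100 mGy and 11566 after 1 Gy), the levels of the members went together weakly. Over the 45 pairs the median Pearson r of log values was 0.183 in the control, 0.143 after 10 mGy, 0.127 after 100 mGy and 0.143 after 1 Gy. The pair of PLEC and MYH9 had the highest mean over the 4 libraries, 0.401, with 0.504 in the control and 0.267 at 100 mGy. DST and MYH9 followed with 0.377 and FLNA and MYH9 with 0.361, and FAT1 and UTRN had the lowest, 0.0637. Barcodes share library and depth, and the r of the members with the log of UMIs per barcode was 0.0522 to 0.242. The 3 highest pairs hold MYH9, the member of highest level, and the part of level in r was not tested.

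Among 3509 genes of at least 50 CPM, the 5 nearest to FAT1 by mean r were MYH9 (0.202), MALAT1 (0.162), DST (0.162), FN1 (0.155) and TPM4 (0.143), where the median gene had 0.0143. For TRIO they were MYH9 (0.208), MALAT1 (0.156), DST (0.145), PLEC (0.133) and FLNA (0.126), with a median of 0.0149 over all genes. For DST they were MALAT1 (0.411), MYH9 (0.377), HNRNPU (0.272), NCL (0.270) and HNRNPA2B1 (0.253), with a median of 0.0309. MALAT1 is a long RNA kept in the nucleus and FN1 codes for fibronectin. Like the members, MALAT1 was lower at the low doses, with 12576 CPM in the control, 7801 after 10 mGy, 7401 after 100 mGy and 11949 after 1 Gy. FN1 was at a ratio of 0.403 after 10 mGy, 0.414 after 100 mGy and 0.948 after 1 Gy. NCL and HNRNPA2B1, which code for abundant nuclear RNA-binding proteins, were nearer to the control with 0.742 and 0.799 at 10 mGy. HNRNPU, which codes for another such protein, lay lower, with 0.547 at 10 mGy and 0.564 at 100 mGy.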

How the data were processed

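Single-cell libraries of BEAS-2B cells were analysed as deposited, 1 for each of the control, 10 mGy, 100 mGy and 1 Gy, and groups were taken from the sample labels. The authors deposited counts, the number of UMIs per gene and barcode, without normalization. The file headers name Cell Ranger 7.0.1, and the submitters' processing notes name Cell Ranger, STAR and GRCh37. For the annotation, intronic reads and barcode filter the setting is not given in the sources used here. Reads come from the 3′ end of transcripts. Whether UMIs of intronic reads add to genes of wide span was not tested.

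UMIs were summed over every deposited barcode of a library and divided by the library total (CPM). Total counts were 211752280 to 285806026. Genes needed a mean of 10 CPM (8507 genes), and 1.2-fold, the size in the study's methods, marked a gene as higher or lower. Intervals are exact (Poisson for sums, binomial for shares, conditional binomial for ratios). Exonic lengths came from GENCODE 29, matched for 8500 of the 8507 genes, and promoters from RefSeq. Named are the 10 members, from each list the genes with the lowest and the highest ratio at 10 mGy, the lists of MYH9, UTRN and AHNAK in full, and the 5 nearest genes of FAT1, DST and TRIO. Other genes named, such as GOLGB1, SYNE2, PFN1 and the within-library partners, were chosen after their values were seen. Some results on gene lists are not reported here. The members and lists were chosen with earlier results of these data known. No doublet caller was run. Columns of per-sample values left unused numbered 0. Ratios were tested on simulated data. The work was done in Python 3.11.15 with pandas 2.3.3, scipy 1.17.1, numpy 2.4.6 and matplotlib 3.10.9.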

Additional observations from a re-analysis of the deposited data

How the results depend on the processing

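Another scaling moved the median log2 ratio of the members and kept it below 0 at both low doses. For 10 mGy, 100 mGy and 1 Gy it was −1.28, −1.33 and −0.12 with means over barcodes of UMIs scaled to 10000. With median ratio scaling it was −0.83, −0.87 and −0.075, with UMIs per barcode unscaled −1.66, −1.89 and −0.53, and at the low doses, without ribosomal protein and mitochondrially encoded genes in the total, −1.04 and −1.13. It was −1.11 at 10 mGy without low-UMI barcodes and after thinning to 5000 UMIs, and −1.10 at 10 mGy and −1.22 at 100 mGy in barcodes of 10000 to 30000 UMIs. Median ratio scaling, unscaled UMIs and the other total shift each gene alike, so they cannot change the distance to the median of all genes. With the other 6 of the 9 alternatives this distance lay between −0.81 and −0.96 at the low doses. Of 180 low-dose values of single members, which chose the group, 180 were below 0 and 178 were more than 1.2-fold lower, the exceptions being SPTAN1 and AHNAK at 100 mGy with median ratio scaling. At 1 Gy the count of members more than 1.2-fold lower was 1 with scaled means, where 1.28% of all genes were lower, and 10 with unscaled UMIs, where 97.2% were. The share of all genes lower at 100 mGy was 39.0% with a floor of 100 CPM, and at 1 Gy it was 1.42% with a floor of 1 CPM. With median ratio scaling 27.3% of all genes were lower and 30.6% higher at 10 mGy, and 29.01% and 31.8% at 100 mGy, and unscaled 84.6% and 1.62%, and 90.1% and 1.02%. The scalings of the gene lists were added after seeing the data. Each value rests on single libraries. No paired analysis was possible because each dose has 1 library and no test was made.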
